A study of Mus musculus with 10 samples.

Results

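The regions described here held at least 1 Dnmt3a2 ChIP-seq read in each of 3 constructs, WWD, R and WT. They were selected on whole reads recovered from the deposited values of the 3 Dnmt3a2 columns, in tables of H3K4me1, H3K4me2 and H3K4me3 regions on chromosomes 1 to 19 and X (mm9). Of 85557 regions in the 3 tables, 984 met the rule. They were 499 of 24286 H3K4me1 regions, 334 of 28979 H3K4me2 regions and 151 of 32292 H3K4me3 regions. Nearly all regions in the tables were 100 bp long, with 2 exceptions. Because the rule used the Dnmt3a2 reads, those reads are given as a description and no test was made on them.

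The cells were mouse embryonic stem cells of the J1 line, Dnmt TKO, at passages 7 to 10, expressing WWD, R or WT Dnmt3a2. All groups, WT included, shared the Dnmt TKO (triple knockout) background. Dnmt3a2 was precipitated with a FLAG antibody. An H3K4me3 antibody was used on WWD, R and WT cells that the labels number 1. Chromatin was cut to 160 to 480 bp and libraries had 18 PCR cycles. The labels list 2 Dnmt3a2 samples per construct, numbered 1 and named bulk, but each table had 1 Dnmt3a2 column per construct and its name did not show which sample or samples it held. The labels do not say which residues WWD and R replace. The regions carried no gene names, so neither the cell type nor nearby genes could be checked.

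Dnmt3a is a methyltransferase that places DNA methylation de novo, and Dnmt3a2 is a short isoform made in embryonic stem cells. Its ADD domain reads the tail of histone H3 and binds poorly when lysine 4 carries methyl groups. H3K4me3 marks active promoters, whereas H3K4me1 and H3K4me2 are found at promoter flanks and enhancers. The series title names an engineered histone-recognition domain in Dnmt3a.

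The Dnmt3a2 columns stood for 17259400 reads in WWD, with 25254320 in R and 24015095 in WT, and the H3K4me3 columns for 26012284, 27424019 and 18801269. With 1 column per construct there was no replicate check, so no comparison below has a p-value. Intervals are exact Clopper-Pearson 95% intervals, which cover counting error only and treat regions as independent. Reads may include background, since no input was subtracted here; the input sample was not analysed here.

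The first question was how often the 3 constructs held reads at the same region. WWD had a read at 25.5% of H3K4me3 regions, R at 9.79% and WT at 9.89%. If these were independent, 79.6 H3K4me3 regions would hold reads in all 3 constructs, and 151 did, which was 1.90 times as many. At H3K4me2 regions the number was 334 against 215 expected, a ratio of 1.55. At H3K4me1 regions it was 499 against 404, a ratio of 1.23. The share of regions with reads in all 3 constructs ran the other way, at 2.05% of H3K4me1, 1.15% of H3K4me2 and 0.468% of H3K4me3 regions. The ratios rest on taking the whole part of the recovered value as the reads: rounding to the nearest whole number gave 1.01, 1.02 and 1.02 for H3K4me1, H3K4me2 and H3K4me3.

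With more reads required in each construct, fewer regions were left and the ratio was higher than at 1 read. At 2 reads in each, 78 H3K4me3 regions were left, 2.45 times the 31.9 expected. At 5 reads in each, 9 H3K4me3 regions were left against 3.55 expected, a ratio of 2.54. The same minimum left 17 H3K4me2 regions against 8.81 (1.93) and 45 H3K4me1 regions against 26.2 (1.72).

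**Figure D1:**
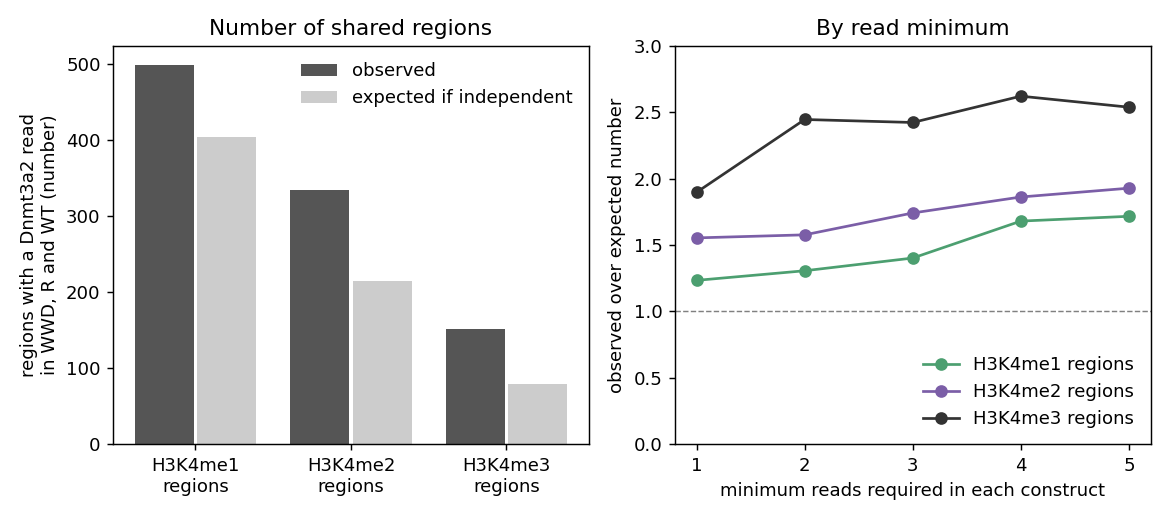
Left, bars give the number of regions with a Dnmt3a2 read in WWD, R and WT (dark) and the number expected from the 3 single shares if they were independent (light), per table. Right, the observed over the expected number (vertical axis) against the minimum reads required in each construct (horizontal axis). At each minimum the ratio was highest at H3K4me3 regions. It was 1.90 there at 1 read, 2.45 at 2, 2.42 at 3, 2.62 at 4 and 2.54 at 5 reads.

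The excess over independence was of the same size in the 3 pairs of constructs at H3K4me3 regions. WWD and WT shared 1017 of these regions, 1.25 times the number expected, WWD and R shared 1017 (1.26), and R and WT shared 397 (1.27). The 397 regions were 12.6% of those with a read in R and 12.4% of those with a read in WT. The WWD and WT overlap was 12.4% of the WWD regions and 31.9% of the WT regions. At H3K4me2 regions the ratios were 1.17 for WWD with WT, 1.28 for R with WT and 1.13 for WWD with R. At H3K4me1 regions they were 1.04, 1.11 and 1.08. When the 3 pairwise overlaps were kept and no further term was added, the number expected in all 3 constructs was 155 for the H3K4me3 table, 357 for H3K4me2 and 503 for H3K4me1. The 151, 334 and 499 regions found were 0.977, 0.936 and 0.991 times these.

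The threshold cut through thinly covered regions. Of the 151 H3K4me3 regions, 73 had exactly 1 read in at least 1 construct, and the same held for 198 of 334 H3K4me2 and 251 of 499 H3K4me1 regions. Just outside it, 246 H3K4me3 regions had 0 reads in WWD but reads in R and WT, with a median of 4 reads in each. A further 866 had 0 reads in R alone, with medians of 3 reads in WWD and 4 in WT, and 866 had 0 in WT alone, with medians of 3 in WWD and 4 in R. These medians were close to those inside the threshold. The deposited values were rounded, so some regions at 1 read in WWD could have held 0. There were 184 of these in the H3K4me3 table, 208 in the H3K4me2 table and 152 in the H3K4me1 table. This touched 3 of the 151, 4 of the 334 and 8 of the 499 regions, and none through R or WT. In the other direction rounding mattered more. With values at the upper edge of their rounding, the rule took in 170 H3K4me3, 397 H3K4me2 and 572 H3K4me1 regions.

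Inside the threshold most regions held few reads. H3K4me3 regions had a median of 3 reads in WWD (lowest 1, highest 48), 5 in R (1 to 57) and 4 in WT (1 to 21). H3K4me2 regions had medians of 2.5 in WWD, 5 in R and 4 in WT, with highest values of 48, 63 and 64. H3K4me1 regions had medians of 3, 5 and 4, with highest values of 71 in WWD, 1180 in R and 1246 in WT. Regions outside the rule that held reads in a construct had medians of 2 to 3 reads in WWD and 4 in R and in WT, so the typical count differed little between the sets. Among the shared regions the ranks of the counts were weakly related between constructs. The rule left out regions with 0 reads and many counts were tied at few reads, which limits what these ranks can show. Across the 151 H3K4me3 regions, Spearman's rho was 0.13 between WWD and WT, -0.02 between R and WT and -0.03 between WWD and R. The highest rho was 0.18, between R and WT across the 499 H3K4me1 regions. The regions of a library share its depth, and these values are given without a test.

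**Figure D2:**
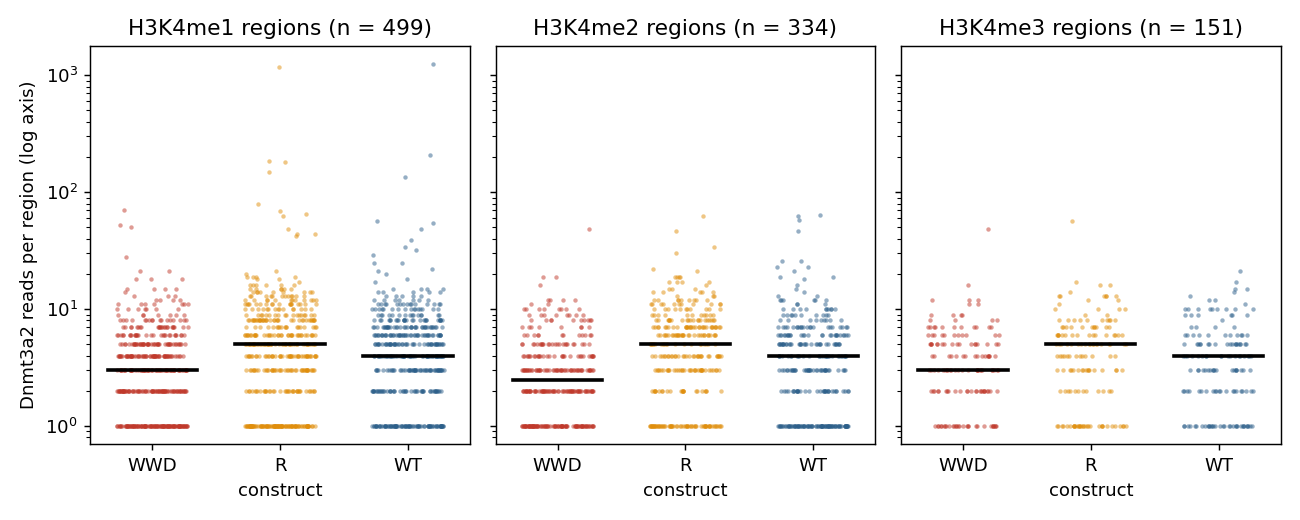
Each point is a region with Dnmt3a2 reads in all 3 constructs, placed by construct (horizontal axis) and by its reads on a log axis (vertical axis), per table; black lines are medians. Most points lie at a few reads, with medians between 2.5 and 5, and single H3K4me1 regions reach 1180 reads in R and 1246 in WT.

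A small number of regions held many reads. Over 20 reads in at least 1 construct were present at 19 of the 499 H3K4me1 regions, 11 of the 334 H3K4me2 regions and 1 of the 151 H3K4me3 regions. Over all regions of each table, that count was passed by 55, 30 and 18, so the shared regions took in 34.5%, 36.7% and 5.56% of them. By library, the 499 H3K4me1 regions, 2.05% of the table, held 6.04% of its WWD reads, 19.2% of its R reads and 16.0% of its WT reads. Requiring a read in each construct fixes part of these shares. Of the H3K4me1 regions, only 9616 had a read in WWD, 4496 in R and 5515 in WT. A single region on chromosome 9 held 1180 of the 4869 R reads and 1246 of the 4387 WT reads at the 499 regions.

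The H3K4me1 regions with the highest lowest value over the 3 constructs began with chromosome X, 73844337 to 73844436, which had 71 reads in WWD, with 180 in R and 207 in WT. Chromosome 9, 3015676 to 3015775, came next and had 52 reads in WWD, with 1180 in R and 1246 in WT. Chromosome 19, 61300306 to 61300405, had 28 in WWD, 186 in R and 135 in WT. These 3 regions were lowest in WWD and far above the medians in every construct. Chromosome 4, 28104072 to 28104171, had 21, 69 and 55 reads in WWD, R and WT, and chromosome 8, 19930169 to 19930268, had 15, 65 and 39. Scaled to 10000000 reads of the library, WWD stayed lowest at each of the 5, for example 41.1 in WWD, 71.3 in R and 86.2 in WT at the chromosome X region.

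Among H3K4me2 regions 3 stood above the rest by the same rule. Chromosome 11, 3077607 to 3077706, had 48 reads in WWD, with 47 in R and 63 in WT. Also on this chromosome, 3045202 to 3045301 had 19 in WWD, 34 in R and 58 in WT. Chromosome 3, 8246360 to 8246459, had 19, 30 and 47 reads in WWD, R and WT. Scaled by library, the first of these was highest in WWD (27.8 reads per 10000000, against 18.6 in R and 26.2 in WT), whereas the other two were highest in WT. The next 2 were far lower: chromosome 6, 71495111 to 71495210, had 6, 12 and 10 reads, and chromosome 5, 123387644 to 123387743, had 6, 9 and 12.

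The H3K4me3 table had 1 region apart from the rest. Chromosome 19, 61275611 to 61275710, had 48 Dnmt3a2 reads in WWD, with 57 in R and 21 in WT. Its H3K4me3 counts of 2918 (WWD), 2734 (R) and 2183 (WT) were the highest of all 32292 regions in each library. The following regions had far fewer Dnmt3a2 reads, though mostly at or above the upper quartiles of the 151, which were 5 in WWD, 7 in R and 6 in WT. Chromosome 1, 137057714 to 137057813, had 7 Dnmt3a2 reads in WWD, with 16 in R and 9 in WT, beside 28, 0 and 29 H3K4me3 reads. Chromosome 8, 72566728 to 72566827, had 7, 13 and 9 Dnmt3a2 reads in the same order. Chromosome 15, 82874506 to 82874605, had 7, 13 and 6, and chromosome 5, 117576351 to 117576450, had 6, 8 and 6.

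Within the shared regions the WWD signal was closer to WT than over the whole tables. Requiring a read in each construct fixes part of this, so the ratios are a description. Summed reads per library total in WWD over WT were 1.32 at the 151 H3K4me3 regions, against 2.80 over the whole table. The ratio was 0.95 at the 334 H3K4me2 regions, against 1.83, and 0.685 at the 499 H3K4me1 regions, against 1.81. With reads capped at 20 per region the H3K4me2 and H3K4me1 values turned to 1.03 and 1.05. For R over WT the ratio was 1.12 in the H3K4me3 table, 1.11 in the H3K4me2 table and 1.06 in the H3K4me1 table, against 1.07, 1.06 and 0.878 over the whole tables. The construct with the highest scaled value was WWD at 64 of the 151 H3K4me3 regions, R at 46 and WT at 41. At the 334 H3K4me2 regions it was WWD at 105, R at 123 and WT at 106. At the 499 H3K4me1 regions it was WWD at 169, R at 164 and WT at 166.

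H3K4me3 was measured in libraries that the rule did not use. At the 151 regions, median H3K4me3 was 22 reads in the WWD library, 12 in R and 13 in WT. The other 32141 regions of the table had medians of 51 reads in WWD, with 48 in R and 42 in WT. Scaled to 10000000 library reads, the medians at the shared regions were 8.46 in WWD, 4.38 in R and 6.91 in WT, against 19.6, 17.5 and 22.3 at the others. The shared regions were thus at 0.431, 0.250 and 0.310 times the median of the others. Of the 151, 70.2% lay below the table median in WWD (interval 62.2 to 77.4), 68.9% in R (60.8 to 76.2) and 67.5% in WT (59.5 to 74.9). The direction was the same in the 3 H3K4me3 libraries.

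H3K4me3 medians were lower the more constructs had a Dnmt3a2 read. In the WT library the median was 23.9 reads per 10000000 at 19998 regions with a Dnmt3a2 read in no construct, 20.2 at 10165 regions with reads in 1, 11.2 at 1978 regions with reads in 2 and 6.91 at the 151 regions with reads in 3. In WWD the same series was 21.1, 18.5, 11.5 and 8.46, and in R it was 18.6, 16.8, 9.12 and 4.38. The quartiles of neighbouring steps overlapped in each library. Taking each construct by itself, whatever the others held, the WT library's median at regions with a read was 0.860 times that at regions without one for WWD, 0.698 times for R and 0.581 times for WT.

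**Figure D3:**
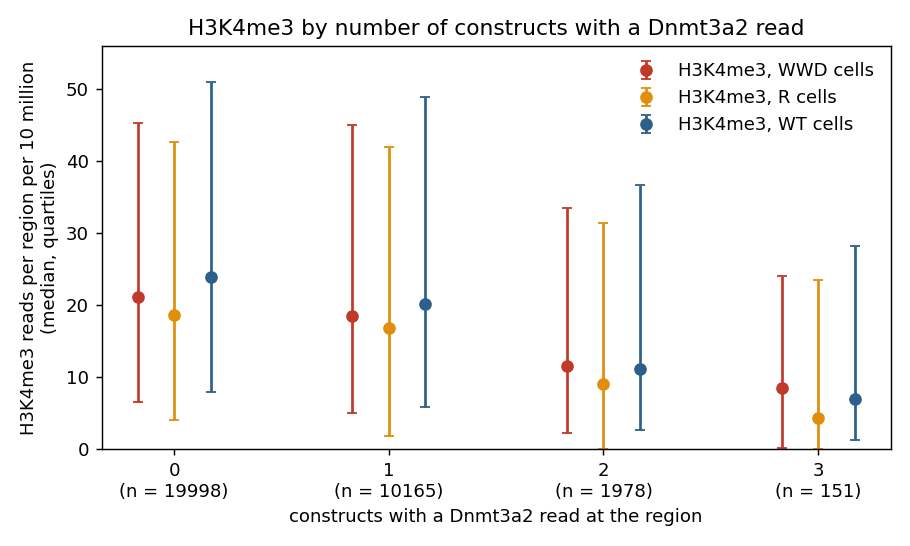
Median H3K4me3 reads per region per 10000000 library reads (vertical axis, bars from lower to upper quartile) at regions of the H3K4me3 table, by the number of constructs with a Dnmt3a2 read (horizontal axis) and by H3K4me3 library. In each library the median was highest with 0 constructs and lowest with 3, at 8.46 in WWD, 4.38 in R and 6.91 in WT.

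Mean H3K4me3 differed less than the median, and the chromosome 19 region held 25.5% of all H3K4me3 reads of the 151 regions in WWD, 25.2% in R and 24.9% in WT. The mean at shared regions over that at the others was 0.955 in WWD, 0.910 in R and 0.901 in WT. Without that region it was 0.716, 0.685 and 0.682. The direction of the mean in WWD turned, to 1.06, with at least 2 Dnmt3a2 reads required in each construct, and to 1.03 without regions empty of H3K4me3. The chromosome 19 region was kept in these 2 settings, which were not recomputed without it.

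No H3K4me3 read in any of the 3 libraries was found at 16 of the 151 regions, or 10.6% (interval 6.18 to 16.6). Among the other regions of the table the share was 4.0% (3.79 to 4.22). It was 6.62% (5.57 to 7.81) where 2 constructs had a Dnmt3a2 read. Of these empty regions, chromosome 15, 82874506 to 82874605, had 7 Dnmt3a2 reads in WWD, with 13 in R and 6 in WT. Chromosome 3, 121280644 to 121280743, had 7, 13 and 4 in the same order, and chromosome 10, 81078158 to 81078257, had 8, 8 and 2. At the other extreme, chromosome 8, 72566728 to 72566827, carried H3K4me3 counts of 718 (WWD), 840 (R) and 442 (WT). On the same chromosome, 19892571 to 19892670 had 665, 726 and 491 H3K4me3 reads, beside 5 Dnmt3a2 reads in WWD, with 1 in R and 3 in WT. Chromosome 7, 31410799 to 31410898, had 265, 452 and 240 H3K4me3 reads, with 6, 4 and 1 Dnmt3a2 reads. Regions with Dnmt3a2 reads in all constructs therefore ranged from no H3K4me3 to the strongest in the table.

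Sorted by mean H3K4me3 into quintiles of the table, the bottom quintile held 59 of the 151 regions, which was 0.913% of its regions (0.696 to 1.18). The following quintiles held 34, 23, 16 and 19, and the top quintile's share was 0.294% (0.177 to 0.459). The number expected from independent shares within a quintile was 36.1 in the bottom and 11.7 in the top quintile. Observed over expected was 1.64 in the bottom quintile, 1.76, 2.02 and 1.92 in the next ones and 1.62 in the top one. The ratio was thus above 1 in each quintile. It uses the reads that the rule used, rests on as few as 16 regions and has no interval.

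H3K4me3 at the shared regions was then compared between constructs. Counts past 2-fold were taken on reads per 10000000 with 3.72 added. In WWD against WT, 20 of the 151 regions were over 2-fold higher, or 13.2% (8.28 to 19.7), where 8.44% of all regions were. A further 20 were over 2-fold lower, where 15.0% of all regions were. In R against WT, 13 of the 151 were higher, or 8.61% (4.66 to 14.3), beside 9.06% of all regions, and 35 were lower, or 23.2% (16.7 to 30.7), beside 24.1%. The shares in R, and that for lower in WWD, had intervals that included the background. For higher in WWD the interval reached down to it with little to spare. It did not with 0.384 added, where 30 were higher, or 19.9% (13.8 to 27.1), beside 12.7% of all regions. Nor did it with ratios centred on their median, where 25 were higher, or 16.6% (11.01 to 23.5), beside 10.5%. With 24.6 added, 1 was higher and 2 were lower in WWD, beside 0.523% and 1.59% of all regions, and 2 were higher and 9 lower in R, beside 1.07% and 4.60%. The part of the lower H3K4me3 reads of the shared regions in these shares was not tested. Median log2 ratios to WT at the shared regions were -0.04 in WWD and -0.17 in R, against -0.13 and -0.25 over the table.

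Among shared regions above their own median H3K4me3, the largest differences between constructs rest on 1 library each. Chromosome 4, 133343437 to 133343536, carried H3K4me3 counts of 63 (WWD), 71 (R) and 1 (WT), beside 5, 1 and 6 Dnmt3a2 reads. Chromosome 15, 75805274 to 75805373, had 61 in WWD, 1 in R and 4 in WT. Chromosome 10, 21699608 to 21699707, had 75, 93 and 7. In the other direction, chromosome 6, 3133638 to 3133737, carried H3K4me3 counts of 19 (WWD), 65 (R) and 84 (WT), beside 12, 2 and 9 Dnmt3a2 reads. Chromosome 7, 29222503 to 29222602, had 17, 26 and 73. Lowest in R were chromosome 12, 78882360 to 78882459, with 15 in WWD, 0 in R and 53 in WT, and chromosome 9, 55090137 to 55090236, with 69, 2 and 64.

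Position was another property that the rule did not use. The 984 regions did not overlap each other, and none had another shared region of its own table within 500 bp. A shared region was also rare beside the other regions of the same table. It lay within 500 bp of 0.118% of the others at H3K4me1, 0.0768% at H3K4me2 and 0.165% at H3K4me3 regions. Merged over the 3 tables at 500 bp, the 984 regions made 982 loci, of which 2 held regions of 2 tables. At that distance 980 of the loci were a single region. No such count was made for other sets of regions. Within 2000 bp, 6 of the 499 H3K4me1 regions had another shared region of their table, or 1.20% (0.443 to 2.60), against 0.521% of the others. The same held for 2 of the 334 H3K4me2 regions (0.599%, against 0.454%) and for 0 of the 151 H3K4me3 regions, against 0.376%. A shared H3K4me2 region was within 500 bp of 0.200% of the shared H3K4me1 regions and 0.181% of the other H3K4me1 regions. Within 2000 bp these shares were 0.601% and 0.446%. A shared H3K4me1 region was within 2000 bp of 3 of the 151 H3K4me3 regions, or 1.99% (0.412 to 5.70), against 0.311% of the others. Of the 151 H3K4me3 regions, 31.1% (23.8 to 39.2) had any region of the same table within 500 bp, against 39.5% (39.0 to 40.1) of the others.

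H3K4me3 regions with reads in all constructs lay less often beside H3K4me2 regions. A region of the H3K4me2 table was within 500 bp of 43 of the 151, or 28.5% (21.4 to 36.4), against 47.0% (46.5 to 47.6) of the others. The reverse view gave the same picture, with a region of the H3K4me3 table within 500 bp of 93 of the 334 H3K4me2 regions, or 27.8% (23.1 to 33.0), against 47.7% (47.1 to 48.3). For H3K4me1 regions the share near the H3K4me2 table was 7.82% (5.62 to 10.5), against 10.9% (10.5 to 11.3). H3K4me2 regions near the H3K4me1 table went the other way, at 12.3% (8.95 to 16.3) against 9.0% (8.67 to 9.34), with an interval that included the share of the others.

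**Figure D4:**
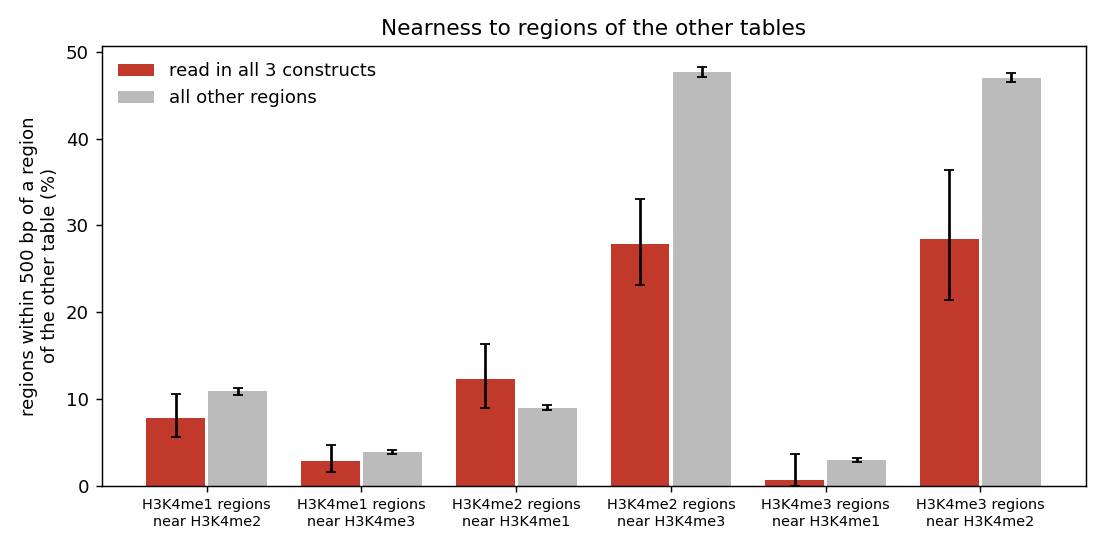
Bars give the percentage of regions within 500 bp of a region of another table (vertical axis), for regions with Dnmt3a2 reads in all 3 constructs (red) and all other regions of the same table (grey); error bars are exact 95% intervals. The red bars stand at 27.8% and 28.5% for H3K4me2 regions near H3K4me3 and H3K4me3 regions near H3K4me2, against 47.7% and 47.0% for the grey bars.

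Chromosome 8 had a higher share of shared regions than the other chromosomes at H3K4me1 and H3K4me3 regions. Of its 1604 H3K4me3 regions, 18 were shared, or 1.12% (0.666 to 1.77), against 0.433% (0.363 to 0.513) on the other chromosomes. At H3K4me1 regions the shares were 3.47% (2.55 to 4.61) on chromosome 8 and 1.97% (1.80 to 2.16) elsewhere. At H3K4me2 regions they were 1.51% (0.947 to 2.27) and 1.13% (1.01 to 1.27), with overlapping intervals. Single constructs also had reads at more chromosome 8 regions: at H3K4me3 regions the share with a read on chromosome 8 was 1.26 times that elsewhere in WWD, 1.35 times in R and 1.40 times in WT. These 3 ratios multiply to 2.39, beside a ratio of 2.59 for the shared regions. At H3K4me1 regions the product was 1.93 beside 1.76, and at H3K4me2 regions 1.73 beside 1.33, so there it exceeded the ratio of the shared regions. Within chromosome 8 alone the number over that expected from independent shares was 2.01 at H3K4me3 regions, against 1.85 on the other chromosomes. It was lower on chromosome 8 at H3K4me1 regions, 1.13 against 1.23, and at H3K4me2 regions, 1.21 against 1.58.

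**Figure D5:**
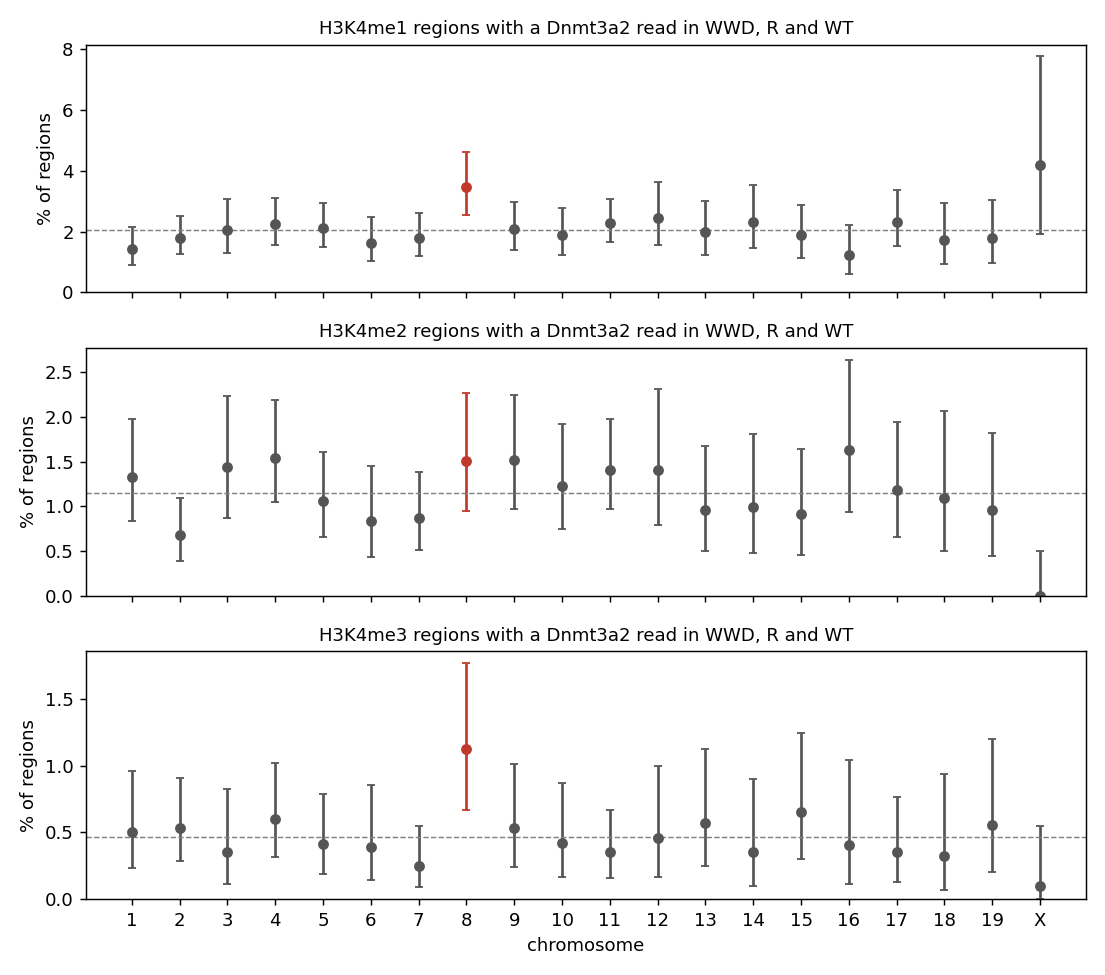
Percentage of regions with Dnmt3a2 reads in all 3 constructs (vertical axis) by chromosome (horizontal axis), per table, with exact 95% intervals; chromosome 8 is red and the dashed line is the share over the table. Chromosome 8 stood at 3.47% of H3K4me1 and 1.12% of H3K4me3 regions, above the table shares of 2.05% and 0.468%, and chromosome X at 4.19% of H3K4me1 regions.

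On chromosome X, more H3K4me1 regions were shared than expected from independent shares. Of 215 H3K4me1 regions on X, 9 were shared, or 4.19% (1.93 to 7.80), while 21.4% had a read in WWD, 12.1% in R and 16.7% in WT. The number expected from these shares was 0.931. Over 20 reads in a construct were present at 7 of the 9. Of all 215 H3K4me1 regions on X only 8 passed that count. These are the reads that the rule used, and the number on X was not recomputed without such regions. Among the 7, X 121268423 to 121268522 had 2 reads in WWD, with 150 in R and 34 in WT, and X 151156844 to 151156943 had 2, 79 and 48. These examples were chosen after their values were seen. At H3K4me2 regions 0 of 730 on X were shared, which allows a share of up to 0.411% (3 counts of the total), and at H3K4me3 regions 1 of 1012 was. The numbers expected from the shares on X were 0.457 and 0.307, too low for these counts to show a difference.

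Few regions, shared or other, lay near the ends of chromosomes. Within 1 Mb of the first region of a chromosome lay 10 of the 334 H3K4me2 regions, or 2.99% (1.44 to 5.44), against 1.09% (0.976 to 1.22) of the others, and 5 of the 10 were on chromosome 11. Within 5 Mb the shares were 4.79% and 3.93%. At H3K4me1 regions the shares were 1.40% (0.566 to 2.87) and 1.09% (0.965 to 1.23), and at H3K4me3 regions 2.65% (0.726 to 6.64) and 1.12% (1.01 to 1.24). Near the last region of a chromosome the intervals included the share of the others at H3K4me1, H3K4me2 and H3K4me3 regions, with 8, 4 and 1 shared regions there.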

How the data were processed

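Per the submitters' processing notes, reads were aligned with Bowtie to mm9. For region calling, the method is not given in the sources. The authors deposited log2 values per region, which per the file headers are scaled by a factor per library. Judged from the values, each is log2 of 1 plus the scaled read count, where an amount below 1 read had been added to the count, and has 2 decimals. Whole reads were recovered by inverting this form and taking the floor. The step was tested on data simulated in this same form, which cannot show that the deposited values have it. Signal is reads per 10000000 library reads.

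The expected number was the number of regions times the product of the 3 shares of regions with a read. The number kept by the pairwise overlaps came from an iterative fit. For H3K4me3 ratios 3.72 reads per 10000000 were added to both sides, which is the 10th percentile of positive signal. Distances are edge to edge, at most 500 bp. Intervals are exact 95% intervals. Reads after PCR are not independent molecules. Computations used scipy 1.17.1, pandas 2.3.3 and numpy 2.4.6 under Python 3.11.15.

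The 2 columns that matched no listed sample were not used, nor were 61 regions on other sequences. The regions, lists and comparisons were chosen with earlier results of these data known. Named regions were, per table, at most 5 with the highest minimum over the constructs of scaled Dnmt3a2 reads. In the H3K4me3 table they were also at most 4 with the highest mean H3K4me3, at most 3 with no H3K4me3 read and the most Dnmt3a2 reads, and at most 2 each way by log2 ratio of WWD or R to WT among those above the median. Chromosome 18 was left out of named regions. Alternatives covered the read minimum, the rounding, the regions and chromosomes kept, strata for the expected number, pseudocounts, centring, distances and a cap on reads.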

Additional observations from a re-analysis of the deposited data

How the results depend on the processing

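The 28 results were recomputed in 97 alternatives. In 56 the value moved by less than its counting interval (for counts, by less than 1.5 times). A further 35 were classed as moved, and in 6 the direction turned. The 35 were past that bound, except for the deposited log2 values, which were classed by sign alone. No paired analysis was possible because each table had 1 Dnmt3a2 column per construct and 1 H3K4me3 library per construct, and for the same reason no library could be left out as a replicate. The number over expected was 1.40, 1.74 and 2.42 at H3K4me1, H3K4me2 and H3K4me3 regions with at least 3 reads in each construct, 1.72, 1.93 and 2.54 with at least 5, and 2.45 at H3K4me3 regions with at least 2. Rounding to the nearest whole number gave 1.01, 1.02 and 1.02, with 6321, 6479 and 6202 regions then taken in. It counts as 1 read many values that have 0 reads by their whole part. Which count is right rests on the form that was judged from the values. Expected numbers by chromosome, by 10 Mb window or by H3K4me3 quintile left the ratio between 1.19 and 1.83. The H3K4me3 ratio of shared over other regions in WWD, R and WT was 0.431, 0.250 and 0.310 by medians, 0.716, 0.685 and 0.681 without regions over 20 Dnmt3a2 reads, 0.884, 0.850 and 0.863 without chromosome 8, 1.06, 0.946 and 0.986 with at least 2 Dnmt3a2 reads, and 1.03, 0.977 and 0.968 without regions empty of H3K4me3, so the direction of the mean in WWD turned in the last 2. These last 2 kept the chromosome 19 region with the most H3K4me3 reads and were not recomputed without it. Deposited log2 values differed in the median by -1.15, -1.83 and -1.56. Past 2-fold in WWD, 1 region was higher and 2 were lower with the median as pseudocount (0.523% and 1.59% of all regions), and 30 were higher and 39 lower with the 1st percentile (12.7% and 22.6%). In R, 2 were higher and 9 lower with the median (1.07% and 4.60%), and 20 were higher both with the 1st percentile (12.2%) and when centred on the median (13.3%). A larger pseudocount shrinks ratios. At 2000 bp the share of H3K4me2 regions near the H3K4me3 table was 0.696 times that of the others. Within 5 Mb of the first region the ratio of shares was 0.963 at H3K4me1 and 1.22 at H3K4me2 regions, and near the last region it was 1.27 at H3K4me3 regions against 0.641 within 1 Mb. Reads capped at 20 moved Dnmt3a2 of WWD over WT to 1.05 at H3K4me1 and 1.03 at H3K4me2 regions; the cause of these changes was not tested. Alternatives added after seeing the data were those for chromosome 8, and the read minimum and the left-out regions for nearness. Most regions held few Dnmt3a2 reads, which limits what any single one can show.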

Other observations

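Dnmt3a2 reads were also counted at regions outside the rule but within 500 bp of a shared region of the same table. At H3K4me3 regions a read was present at 18 of 53 such neighbours in WWD, or 34.0% (exact interval 21.5 to 48.3), against 23.0% (22.3 to 23.8) of other regions with a neighbour. In R the shares were 11.3% (4.27 to 23.0) and 8.35% (7.88 to 8.85), and in WT 13.2% (5.48 to 25.3) and 7.95% (7.48 to 8.43). The 28 neighbours at H3K4me1 regions had a read in 14 cases in WWD (interval 30.6% to 69.4%), against 36.4% (34.1 to 38.8) of the others. The share was higher at the neighbours in these 4 cases, and each interval included the share of the other regions, so a difference was not detectable with so few neighbours. At the 22 neighbours at H3K4me2 regions the shares were 27.3% in WWD, 13.6% in R and 9.09% in WT, against 27.4%, 13.6% and 14.6%. At H3K4me1 regions they were 14.3% in R and 32.1% in WT, against 16.4% and 22.3%. The share at neighbours was thus also higher in WT at H3K4me1 regions. It was lower in R there and in WT at H3K4me2 regions, and nearly equal in WWD and R at H3K4me2 regions. The cases had no common direction.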
